A study of Homo sapiens with 2 samples.

Results

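The genes of the translation initiation factors (EIF) and elongation factors (EEF) were examined in Huh7, a human hepatocellular carcinoma cell line. Members were chosen by symbol: every listed gene named EIF1 to EIF6 or EEF1 or EEF2 with its suffixes, leaving out the EIF2AK kinases, pseudogenes and antisense genes. Of 61541 genes in the table, 215 had such a name. Removing 5 EIF2AK rows, 141 pseudogenes and 2 antisense genes left 67 members. Of these, 63 had at least 10 estimated reads over both libraries and 62 of the 63 were protein-coding. EIF4E1B, EIF2B5-DT and the readthrough EEF1AKMT4-ECE2 were listed at 0 reads in both libraries, which allows up to 3 reads in each, and EIF1AY had under 10 reads.

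RNA-seq compared Huh7-NC, which received a control siRNA (si-NC), with Huh7-si, which received an siRNA targeting BRF2 (si-BRF2), at 1 library for each. BRF2 encodes a subunit of an RNA polymerase III initiation factor, and neither the dose of siRNA, nor the time after transfection, nor which of the BRF2 siRNAs was used is given in the labels. No difference here has a replicate check. Total gene reads, 22852648 in Huh7-NC against 22089016 in Huh7-si, set the scale of each fold change, and the 95% Clopper-Pearson intervals cover counting error only and compare these 2 libraries, not the conditions. Where a pair of values follows a gene, Huh7-NC comes first and Huh7-si after it.

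Initiation factors bring the initiator methionyl-tRNA, the small ribosomal subunit and the mRNA together, and the large subunit joins once the start codon is found. Elongation factors then deliver each aminoacyl-tRNA to the ribosome and move the ribosome along the mRNA. Hepatocytes and hepatoma cells secrete plasma proteins in bulk, which draws on all of these factors.

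BRF2, the targeted gene, had 1281 reads in Huh7-NC against 364 in Huh7-si, giving a log2 fold change of -1.77 (interval -1.94 to -1.60). All 10 hepatocyte and hepatoma markers, among them ALB and AFP, had at least 10 TPM (a level relative to gene length) in both libraries. None of 10 markers of blood, endothelial and stromal cells reached 10 TPM, and their summed level was 6.19 TPM in Huh7-NC and 11.0 TPM in Huh7-si. CD3E and HBB were listed at 0 in both libraries, as was CDH5 in Huh7-si.

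Most translation factor genes had fewer reads per total gene reads in Huh7-si than in Huh7-NC. Of the 63 members, 50 had a log2 fold change below 0, or 79.4%, where 35.2% of all 17921 genes with at least 10 reads did. Their median log2 fold change was -0.25, within a range of -1.18 to 0.84, beside a median of 0.21 over all genes tested. Among genes as deeply read as most members, protein-coding genes with at least 1000 reads over both libraries, 42 of 53 members were below 0 against 46.0% of 7291 such genes, with medians of -0.25 and 0.05. On that same deep set the interval was below 0 for 38 members (36.2% of such genes) and above 0 for 9 (44.0%), 7 were lower by at least 1.5-fold (3.58%) and 0 higher (12.9%), and none passed 2-fold downward (0.0823%) or upward (2.96%). In bulk data, fewer cells that express a gene and less of its RNA per cell cannot be told apart.

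The shifts were modest. The interval lay below 0 for 41 members (19.9% of all genes tested), above 0 for 10 members (41.2%) and included 0 for 12. A fold of at least 1.5 with an interval on the same side was reached by 9 lower members (3.83% of all genes) and by 1 higher member (23.0%). A fold of at least 2, taken as the threshold of a call, was passed downward by EEF1E1-BLOC1S5 alone (1.14% of all genes) and upward by none (12.4%). EEF1E1-BLOC1S5, a readthrough of EEF1E1 into BLOC1S5, fell from 46.7 to 19.6 reads, with its log2 fold change at -1.18 (-2.02 to -0.40). It overlaps both of those genes on the same strand, so its reads are uncertain. The call was lost relative to genes of like length (-0.82), relative to genes with like reads per TPM (-0.78), with a pseudocount of 1 CPM (-0.69) and by edgeR's exact test with an assumed coefficient of variation of 0.4.

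**Figure D1:**
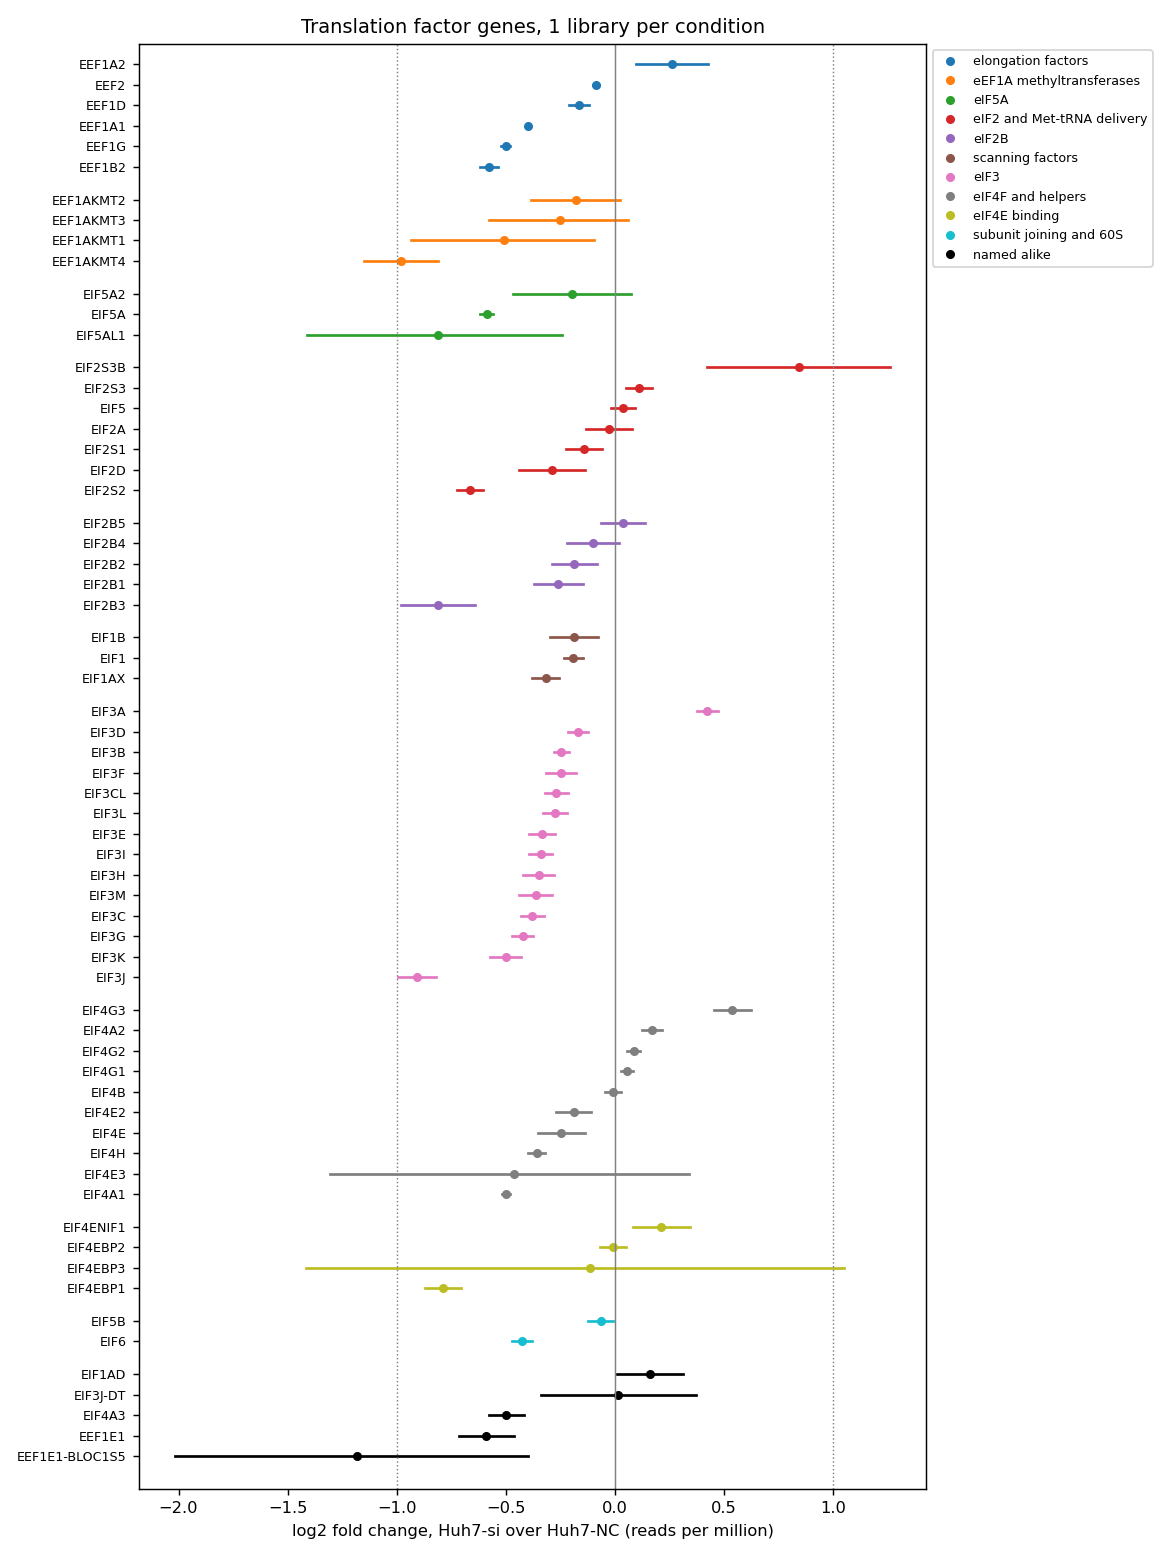
Log2 fold change (Huh7-si over Huh7-NC, reads scaled to total gene reads) of the 63 members with at least 10 reads, 1 point per gene with its 95% Clopper-Pearson counting interval, coloured by role. Most points lie between -0.50 and 0, EEF1E1-BLOC1S5 lies beyond the dotted line at a 2-fold change, and EIF2S3B is the highest at 0.84.

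In sum the members took 2.98% of all gene reads in Huh7-NC against 2.43% in Huh7-si. Their summed level was 23749 TPM in Huh7-NC and 20900 TPM in Huh7-si. EEF1A1 alone accounted for 1.01% and 0.767% of all gene reads in the respective libraries.

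Several elongation and initiation factor mRNAs are known to begin with a terminal oligopyrimidine (TOP) run, a C at the first transcribed base followed by further C and T bases, which places them under mTORC1 control together with the ribosomal protein mRNAs. The 30 bases around the RefSeq start (10 before it and 20 from it, GRCh38.p14, on the gene's strand) are given for a set of members, with the run in capitals.
EEF1A1: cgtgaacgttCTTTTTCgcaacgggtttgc
EEF1B2: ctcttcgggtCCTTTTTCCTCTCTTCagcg
EEF2: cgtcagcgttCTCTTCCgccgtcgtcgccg
EIF3F: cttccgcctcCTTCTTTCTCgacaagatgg
EIF4A2: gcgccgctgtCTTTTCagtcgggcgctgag
EIF4B: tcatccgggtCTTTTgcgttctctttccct
EIF4A1: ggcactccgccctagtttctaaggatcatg
EIF3J: ccgccgtgctaactcctcgctagctctccc
The first 6 hold a run and the last 2, shown for contrast with EIF4A2 and EIF3F, hold none at the annotated start. EEF1B2 has a further annotated start with no run. The windows lie at chr6:73521013-73521042 (minus strand) for EEF1A1, chr2:206159885-206159914 (plus) for EEF1B2 and chr19:3985444-3985473 (minus) for EEF2. They lie at chr11:7987327-7987356 (plus) for EIF3F, chr3:186783567-186783596 (plus) for EIF4A2 and chr12:53006446-53006475 (plus) for EIF4B. EIF4A1 is at chr17:7572815-7572844 (plus) and EIF3J at chr15:44537137-44537166 (plus).

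A TOP-like start, defined as a C at the start followed by at least 4 bases that are each C or T, was present at a RefSeq start of 13 of the 51 members with a window, or 25.5%. It was present for 5.14% of 27305 gene symbols and for 7.03% of the genes tested. The values of members with and without a run overlapped widely. Their median log2 fold change was -0.17 for the 13 with a run and -0.22 for the 38 without. A separate list of 10 TOP mRNAs among the members gave the other order. Its median was -0.29, with 9 below 0, against -0.25 for the 53 members off it, with 41 below 0. On that list EEF1G had no run, and EEF1A2, EEF1D, EIF3E and EIF3H had no window. Off the list, EIF2A, EIF2D, EIF2S3, EIF2S3B, EIF3D, EIF3K, EIF3M and EIF4A2 did have a run, so the 2 groupings overlap only in part. Neither difference was tested. Members with a run reached from -0.58 for EEF1B2 to 0.84 for EIF2S3B, and the members printed above without a run, EIF4A1 and EIF3J, had -0.50 and -0.91. Over all genes tested the medians were 0.06 with a run (846 genes) and 0.17 without (11191 genes). A match is a description of these letters and not of a functional site.

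The elongation factors carried the most reads. EEF1A1, the GTPase that carries aminoacyl-tRNA to the ribosome, had 231310 reads in Huh7-NC against 169502 in Huh7-si, giving a log2 fold change of -0.40 (interval -0.41 to -0.39). Its level was 7440 TPM in Huh7-NC and 6369 TPM in Huh7-si, the highest of all members. EEF1A2, its paralogue best known from muscle and nerve, had 559 and 647 reads with a log2 fold change of 0.26 (0.09 to 0.43). EEF1A1 thus had 414 reads for each EEF1A2 read in Huh7-NC against 262 in Huh7-si, a log2 change in the ratio of -0.66 (-0.82 to -0.50), which does not depend on how the libraries are scaled.

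The exchange factor that reloads eEF1A with GTP was lower in each of its subunits, though by reads unequally. EEF1B2, a catalytic subunit, had 12020 and 7794 reads with a log2 fold change of -0.58. EEF1G, the structural subunit, had 44644 and 30505 reads and -0.50. EEF1D, the other catalytic subunit, had 8245 and 7104 reads and -0.17, which turned to 0.09 relative to genes with like reads per TPM. Relative to genes of like length EEF1B2, EEF1G and EEF1D stood closer together, at -0.28, -0.35 and -0.20. By TPM they stood at -0.39, -0.32 and -0.25.

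EEF2, the translocase that moves the ribosome by a codon, had 72228 and 65715 reads with a log2 fold change of -0.09 (-0.10 to -0.07). Relative to EEF1A1 its reads were thus higher in Huh7-si, with 0.312 and 0.388 EEF2 reads for each EEF1A1 read and a log2 change in the ratio of 0.31 (0.29 to 0.33). By TPM EEF2 stood at 1275 in Huh7-NC against 1354 in Huh7-si, so its direction turned with the measure. The median log2 fold change of the 6 elongation factors was -0.28.

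The methyltransferases that modify lysines of eEF1A were weakly read. EEF1AKMT4 had 861 reads in Huh7-NC against 422 in Huh7-si, giving a log2 fold change of -0.98 (-1.15 to -0.81), the lowest of members with at least 100 reads and just short of a 2-fold change. Under TMM scaling it passed 2-fold, at -1.20, and relative to genes of like length it stood at -0.69. EEF1AKMT1 had 121 and 82 reads and -0.51, with an interval of -0.93 to -0.10. The intervals of EEF1AKMT2 (-0.18) and EEF1AKMT3 (-0.25) included 0.

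EIF5A, the factor that carries the hypusine residue and helps ribosomes past difficult stretches, had 24803 and 15938 reads with a log2 fold change of -0.59 (-0.62 to -0.56). Its paralogue EIF5A2 had 250 and 211 reads and -0.20 (-0.47 to 0.07). By TPM EIF5A and EIF5A2 stood at -0.40 and -0.18. Relative to genes of like length their order turned, with EIF5A at -0.22 and EIF5A2 at -0.62. EIF5AL1, an intronless copy, had 72.6 and 39.8 reads and -0.81. Since a read from EIF5A could be assigned to the copy, their reads were also summed, which gave -0.59.

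The subunits of eIF2, the complex that carries the initiator methionyl-tRNA, had unlike values. EIF2S1, the alpha subunit phosphorylated in the integrated stress response, had 2609 and 2285 reads with a log2 fold change of -0.14 (-0.22 to -0.06), but its TPM was 117 in Huh7-NC against 143 in Huh7-si. EIF2S2, the beta subunit, had 6097 and 3715 reads and -0.67 (-0.72 to -0.61). EIF2S3, the gamma subunit that binds GTP and the tRNA, had 4415 and 4601 reads and 0.11 (0.05 to 0.17), which turned to -0.12 under TMM scaling.

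The ratio of EIF2S2 to EIF2S3 reads was 1.38 in Huh7-NC against 0.807 in Huh7-si, a log2 change of -0.77 (-0.86 to -0.69). EIF2S3B, a near-identical copy of EIF2S3, had 76.7 and 133 reads and 0.84 (0.42 to 1.26), the highest value of any member. Reads of EIF2S3 and its copy cannot be assigned with certainty, and their sum gave 0.12. Among the other factors of this step, EIF5, which stimulates GTP hydrolysis by eIF2, was at 0.04 (-0.02 to 0.09), EIF2A at -0.03 (-0.13 to 0.08) and EIF2D at -0.29 (-0.44 to -0.14).

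eIF2B, the complex that recharges eIF2 with GTP and that phosphorylated eIF2 inhibits, also had unlike values. EIF2B3, the gamma subunit of its catalytic subcomplex, had 802 and 442 reads with a log2 fold change of -0.81 (-0.98 to -0.64). EIF2B5, the catalytic epsilon subunit with which it pairs, had 1583 and 1570 reads and 0.04 (-0.06 to 0.14). For each EIF2B5 read there were 0.507 EIF2B3 reads in Huh7-NC against 0.282 in Huh7-si, a log2 change of -0.85 (-1.04 to -0.65). EIF2B1 stood at -0.26, EIF2B2 at -0.19 and EIF2B4 at -0.10, where the interval of EIF2B4 included 0 and EIF2B2 turned to 0.09 by TPM.

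The scanning factors EIF1 and EIF1B, which guard the choice of start codon, had nearly equal values. EIF1 had 8978 and 7601 reads and -0.19 (-0.24 to -0.15), and EIF1B had 1458 and 1238 reads and -0.19 (-0.30 to -0.08). EIF1 had 6.16 reads for each EIF1B read in Huh7-NC against 6.14 in Huh7-si, and the log2 change in that ratio had an interval of -0.12 to 0.11. EIF1AX, which works beside EIF1 on the small subunit, had 4646 and 3603 reads and -0.32, but 75.3 and 83.1 TPM.

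eIF3, the many-subunit scaffold on the small ribosomal subunit, had values close together by reads for all but EIF3A and EIF3J. Of its 14 genes (the near-identical EIF3C and EIF3CL counted apart), 13 had a log2 fold change below 0 with an interval below 0, where 19.9% of all genes tested and 36.2% of protein-coding genes with at least 1000 reads had such an interval. Leaving out EIF3A and EIF3J, the other 12 lay between -0.50 for EIF3K and -0.17 for EIF3D, and the median of all 14 was -0.34. On other scales the same 12 were wider apart. They ran from -0.72 for EIF3M to -0.13 for EIF3G relative to genes of like length. By TPM they ran from -0.33 for EIF3C to 0.14 for EIF3B. EIF3C and EIF3CL, summed because they share reads, gave -0.32.

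EIF3A and EIF3J stood at opposite ends. EIF3A, the largest subunit and part of the core of the complex, had 5983 reads in Huh7-NC against 7754 in Huh7-si, giving a log2 fold change of 0.42 (0.37 to 0.47), with 50.5 and 86.9 TPM. EIF3J, a loosely bound subunit near the decoding site, had 3272 and 1686 reads and -0.91 (-0.99 to -0.82), with 107 and 60.2 TPM. The number of EIF3J reads for each EIF3A read was 0.547 in Huh7-NC against 0.217 in Huh7-si, a log2 change of -1.33 (-1.43 to -1.23). That pair joins the lowest and the highest of the eIF3 genes, so a large change follows from the pairing. EIF3A is also among the longest members at 6659 bases, and relative to the median of protein-coding genes of like length it stood at -0.02. By that measure all 14 eIF3 genes were below 0, EIF3A only barely. On that scale 44.2% of all genes tested and 60.9% of protein-coding genes with at least 1000 reads were below 0.

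The eIF4F complex recognises the cap through eIF4E, unwinds the leader through the helicase eIF4A and holds them together through the scaffold eIF4G. EIF4A1, the main helicase, had 52895 and 36148 reads with a log2 fold change of -0.50 (-0.52 to -0.48), and it overlaps the readthrough SENP3-EIF4A1 on the same strand. EIF4A2, its close paralogue, had 7190 and 7816 reads and 0.17 (0.12 to 0.22), which turned to -0.06 under TMM scaling. EIF4A1 had 7.36 reads for each EIF4A2 read in Huh7-NC against 4.62 in Huh7-si, a log2 change of -0.67 (-0.72 to -0.62) by reads and -0.66 by TPM. EIF4A3, a related helicase of the exon junction complex and no initiation factor, had 3048 and 2085 reads and -0.50.

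Among the scaffolds, EIF4G1 had 21416 and 21504 reads with a log2 fold change of 0.05 (0.03 to 0.08), which turned to -0.17 under TMM scaling. EIF4G2, which lacks the eIF4E-binding part, had 17985 and 18440 reads and 0.09 (0.06 to 0.11), which turned to -0.14 under TMM scaling. EIF4G3 had 1932 and 2710 reads and 0.54 (0.45 to 0.62), by reads the highest of members with at least 1000 reads. Listed at 5688 bases, it stood at 0.12 relative to genes of like length, where EIF1AD was at 0.52. For each EIF4G3 read there were 11.1 EIF4G1 reads in Huh7-NC against 7.94 in Huh7-si, a log2 change of -0.48 (-0.57 to -0.39).

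EIF4E, the cap-binding protein, had 1611 and 1313 reads with a log2 fold change of -0.25 (-0.35 to -0.14), yet 51.8 TPM in Huh7-NC and 71.2 TPM in Huh7-si. EIF4E2, a cap-binding paralogue tied to repression, had 2655 and 2250 reads and -0.19, with 125 and 108 TPM. EIF4E3 had 33 and 23 reads, too few to show a difference (-1.31 to 0.34). The helpers of the helicase, EIF4B and EIF4H, stood at -0.01 (-0.05 to 0.03) and -0.36 (-0.40 to -0.32).

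The small proteins that bind eIF4E and block its contact with eIF4G are inhibitors that mTORC1 switches off. EIF4EBP1 had 3280 and 1837 reads with a log2 fold change of -0.79 (-0.87 to -0.70), with 289 and 187 TPM. EIF4EBP2 had 4438 and 4262 reads and -0.01 (-0.07 to 0.05), with 31.1 and 35.2 TPM. EIF4EBP1 had 0.739 reads for each EIF4EBP2 read in Huh7-NC against 0.431 in Huh7-si, a log2 change of -0.78 (-0.88 to -0.68). By TPM that change was -0.80. Relative to genes of like length, however, EIF4EBP1 stood at -0.42 and EIF4EBP2 at -0.56. Relative to genes with like reads per TPM they stood at -0.53 and -0.65, so EIF4EBP1 was not the lower on either scale. Against EIF4E itself, EIF4EBP1 had 2.04 and 1.40 reads per read, a log2 change of -0.54 by reads and -1.09 by TPM. EIF4EBP3 had 14.0 and 12.4 reads, too few for a comparison, and overlaps the readthrough ANKHD1-EIF4EBP3. EIF4ENIF1, which shuttles eIF4E into the nucleus, was at 0.21 (0.08 to 0.34), which turned below 0 under TMM scaling.

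At the joining of the large subunit, EIF5B, the GTPase of that step, had 5282 and 4876 reads with a log2 fold change of -0.07 (-0.12 to -0.01), which turned to 0.19 by TPM. EIF6, which keeps free large subunits apart from small ones, had 9147 and 6570 reads and -0.43 (-0.47 to -0.38). Of the genes that share only the name, EEF1E1, a scaffold protein of the aminoacyl-tRNA synthetase complex, had 1310 and 841 reads and -0.59 (-0.72 to -0.46). EIF1AD stood at 0.16 (0.01 to 0.31), which turned below 0 under TMM scaling, and the interval of the noncoding EIF3J-DT included 0.

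**Figure D2:**
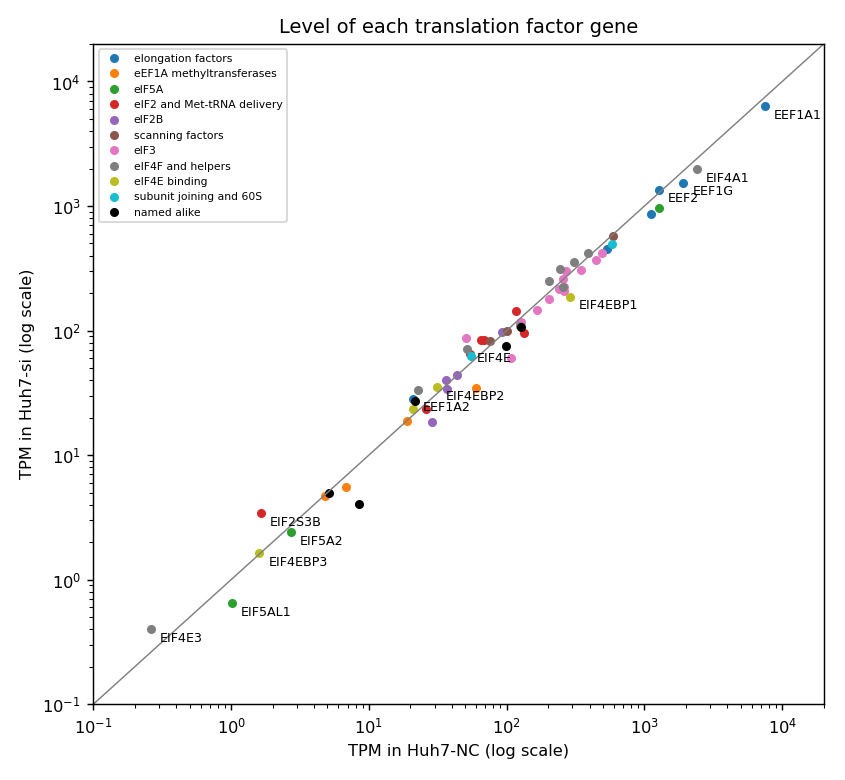
Level of each of the 63 members in TPM, Huh7-NC on the horizontal and Huh7-si on the vertical axis, both on log scales, with the line of equal level and 1 point per gene coloured by role. EEF1A1 is at the top at 7440 and 6369 TPM, EIF4E3 at the bottom at 0.26 and 0.40 TPM, and EIF2S3B lies above the line.

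Gene length moved with the change. Across the 63 members, Spearman's rho between listed gene length and log2 fold change was 0.36, and across protein-coding genes tested it was 0.46, with all points taken from the same 2 libraries. Split into equal groups by length, the shortest members (693 to 1784 bases) had a median log2 fold change of -0.50, the middle group (1880 to 3158 bases) -0.25 and the longest (3220 to 9978 bases) -0.14. Each gene was therefore also set against the median of protein-coding genes in its own 1 of 20 length bins. On that scale the median of the members was -0.29, and 50 of 63 were below 0, where 44.2% of all genes tested were. Of members with at least 1000 reads, 42 of 53 were below 0 with a median of -0.28, against 60.9% and a median of -0.08 for such protein-coding genes, so deeply read genes in general also lay below 0 on this scale. The part of RNA integrity or fragment length in this relation was not tested.

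**Figure D3:**
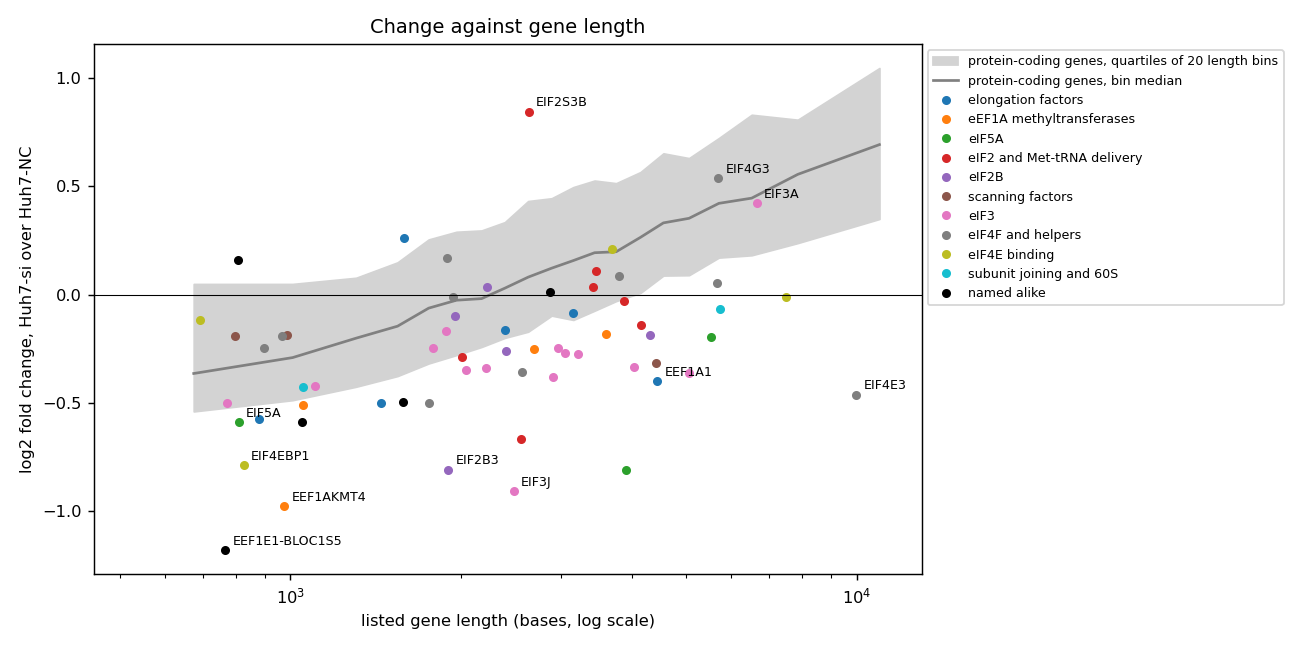
Log2 fold change (Huh7-si over Huh7-NC) against listed gene length in bases (log scale), with 1 point per member coloured by role, the grey line giving the median and the band the quartiles of protein-coding genes in 20 length bins. The line climbs with length, and most members lie under it, EIF3J at 2479 bases and EIF2B3 at 1900 bases far below the band.

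The correction changed the order of the members. EEF1A1, listed at 4441 bases, stood at -0.73 relative to genes of like length, lower than EEF1B2 at -0.28, which is 880 bases long. EEF1A1 had only 31.1 reads for each TPM unit in Huh7-NC, against 56.7 for EEF2 at 3158 bases. Relative to genes with like reads per TPM, EEF1A1 stood at -0.40 and EEF1B2 at -0.18. EIF3M, listed at 5047 bases, was at -0.72 by length and -0.11 by reads per TPM. These values thus depended on the listed length. EIF3J was the lowest of members with at least 1000 reads, at -0.94. EIF4EBP1 stood at -0.42 and EIF5A at -0.22. The short EIF1 and EIF1B, at 0.17 and 0.10, and EIF4E, at 0.05, changed sign, as did EIF4G1 at -0.37.

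By TPM the members lay nearer to 0, while all genes tested lay higher. The median log2 ratio of TPM was -0.11 over the members and 0.39 over all genes tested, with 37 members below 0 and 26 above, where 24.8% of all genes were below 0. Of members with at least 1000 reads, 30 of 53 were below 0 by TPM, against 29.3% of such protein-coding genes. For 15 members the sign differed between the measures, and 14 of the 15 were lower by reads and higher by TPM. The TPM ratio exceeded the read ratio by a median of 0.17 on the log2 scale over the members and 0.19 over protein-coding genes.

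EIF4E departed from that offset. It had 31.1 reads for each TPM unit in Huh7-NC against 18.4 in Huh7-si, and its log2 ratio was -0.25 by reads and 0.46 by TPM. EIF4E3, at 33 and 23 reads, differed likewise (127 and 57.5 reads per TPM unit). EIF1AX (-0.32 by reads and 0.14 by TPM), EIF2S1 (-0.14 and 0.29) and EIF3B (-0.25 and 0.14) also changed sign. EIF3A was higher by both, at 0.42 and 0.79. Isoforms are not given, so whether a change of isoform accompanied these values was not tested.

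**Figure D4:**
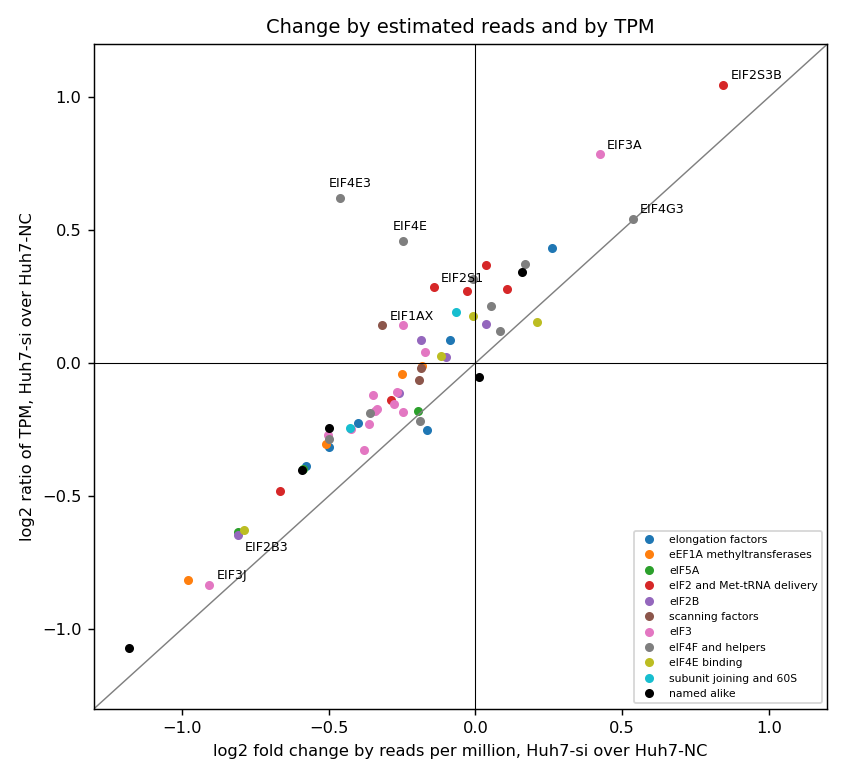
Log2 fold change by reads scaled to total gene reads (horizontal) against the log2 ratio of TPM (vertical), Huh7-si over Huh7-NC, 1 point per member coloured by role, with the line of equality. Most points run parallel to the line and a little above it, while EIF4E3 and EIF4E lie far above.

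By reads the median of the members stood between those of the ribosomal protein genes and the aminoacyl-tRNA synthetases, and relative to genes of like length it was the lowest of these lists. All 82 ribosomal protein genes had a log2 fold change below 0, with a median of -0.53, which was -0.22 relative to genes of like length. The 35 aminoacyl-tRNA synthetase genes had medians of -0.02 and -0.14 on those scales. By TPM the order was that by reads, with medians of -0.38 for the ribosomal protein genes, -0.11 for the members and 0.21 for the synthetases. These differences between lists were not tested.

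Of 44 further genes of translation and its control, 43 had at least 10 reads, and their median log2 fold change was 0.00. The interval was below 0 for 15, above 0 for 16 and included 0 for 12, beside 36.2% below and 44.0% above for deeply read protein-coding genes (1000 reads or more). A fold of at least 1.5 was reached upward by 3, where 23.0% of all genes tested and 12.9% of the deeply read genes reached it, and downward by none. By reads a fold of 2 was reached by none, where 12.4% of all genes tested reached it upward and 1.14% downward. Among the deeply read genes 2.96% reached it upward and 0.0823% downward. By TPM that fold was passed upward by PPP1R15A (log2 ratio 1.05) and PDCD4 (1.10), where 20.3% of all genes tested passed it. The 3 genes past 1.5-fold by reads are given for their roles. PPP1R15A, the stress-induced subunit that directs dephosphorylation of eIF2 alpha, had 2733 and 4817 reads with a log2 fold change of 0.87 (0.80 to 0.93). EIF2AK3, the kinase PERK that phosphorylates eIF2 alpha, had 662 and 1108 reads and 0.79 (0.65 to 0.93). PDCD4, an inhibitor of eIF4A, had 548 and 796 reads and 0.59 (0.43 to 0.75).

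The enzymes that make hypusine on eIF5A had values below 0, like EIF5A itself. DHPS stood at -0.40 (-0.50 to -0.30) and DOHH at -0.53 (-0.67 to -0.40). PABPC1, the poly(A)-binding protein that contacts eIF4G and whose mRNA is also a TOP mRNA, had 22873 and 25230 reads and 0.19 (0.16 to 0.22), which turned below 0 under TMM scaling. LARP1, which binds TOP mRNAs, had 9516 and 11595 reads and 0.33 (0.29 to 0.37), which turned to -0.22 relative to genes of like length.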

How the data were processed

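RNA-seq of Huh7-NC and Huh7-si was analyzed, with 1 library each. The authors deposited for each gene an estimated count of reads, not scaled and partly fractional, a TPM value and a gene length in bases. Their columns of fold change, log2 fold change and p-value were not used. The submitters' processing notes name TopHat2 2.0.12, Bowtie2 2.0.6 and GRCh37. The counting tool, annotation and strandedness are not given in the sources used here. Of the 63 members with reads, 9 overlap another gene on the same strand and 29 on the opposite strand.

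Fold changes were ratios of reads (pseudocount 0.5) per total gene reads, over genes with at least 10 reads in both libraries together. Totals were 22852648 and 22089016 reads. Intervals on rounded reads are 95% Clopper-Pearson. Those of ratios between members are normal approximations on the log scale. Both cover counting error only. The pairs EIF3J to EIF3A, EIF2B3 to EIF2B5 and EIF2S2 to EIF2S3 each join the lowest and highest subunit of a complex (EIF2S3B left aside). The size of their change thus follows in part from the pairing. A call needed a fold of at least 2 and an interval without 0, and a count of 0 allows 3 reads. No p-value is given because no spread between replicates exists. The members and lists were chosen with earlier results of these data known. Genes named by rule were those past the fold, the 3 largest rises and falls with at least 100 reads, the highest TPM of each role, paralogue sets and the subunits of eIF2, eIF2B and eIF3. Other members named were chosen after their values were seen.

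Gene types came from GENCODE release 29 and start windows from RefSeq (GRCh38.p14), found for 51 of the 63 members by symbol. These were matched by name, and no position was carried between builds. The method was tested on simulated reads of 17921 genes, in which 200 of 200 genes changed 4-fold were recovered. That change is larger than any among the members, so the test does not show how shifts of their size would be recovered. Alternatives were other scalings (edgeR 4.0.16, DESeq2 1.42.0), TPM, like length, the pseudocount, the read minimum, a fold of 1.5 and edgeR's exact test with an assumed coefficient of variation of 0.4. R 4.3.3, Python 3.11.15, SciPy 1.17.1, pandas 2.3.3, NumPy 2.4.6 and matplotlib 3.10.9 were used.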

Additional observations from a re-analysis of the deposited data

How the results depend on the processing

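With 1 library per condition no result has a replicate check, and no library could be left out. No paired analysis was possible because each condition has 1 library. Beside total reads, TMM scaling moved every log2 fold change by -0.22, the median of ratios by -0.21 and the upper quartile by -0.19. The median of the members was then -0.47, -0.46 and -0.43, and -0.11 by TPM, below 0 under all of these. The number of members lower by 2-fold was 6 under TMM (2.15% of all genes tested), 5 under the median of ratios (2%), 3 under the upper quartile (1.88%) and 2 without the 100 top genes (1.21%). EEF1E1-BLOC1S5 and EEF1AKMT4 were among them each time. EIF3J was among them under TMM, the median of ratios and the upper quartile. EIF2B3 and EIF5AL1 were among them under TMM and the median of ratios, and EIF4EBP1 under TMM. The number was 2 relative to genes of like length (1.27%), EIF4E3 and EIF5AL1, both with few reads, and 1 relative to genes with like reads per TPM (1.13%), EIF5AL1, so that the call of EEF1E1-BLOC1S5 was lost under both. It was 0 with a pseudocount of 1 CPM (0.24%) and 9 at a fold of 1.5 (3.83%). A minimum of 100 reads left out EEF1E1-BLOC1S5, the only member called by total reads. By edgeR's exact test with an assumed coefficient of variation of 0.4 that call was lost as well. No share over all genes is given for these last settings, so their counts of members are not set out. The number higher was 1 by TPM (20.3%) and 1 at a fold of 1.5 (23.0%), EIF2S3B in each. The BRF2 call held under every alternative run for it.

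Single members whose interval left out 0 turned sign as follows. Under TMM, the median of ratios and the upper quartile, EIF2S3 was at -0.12, -0.10 and -0.078, EIF4A2 at -0.055, -0.037 and -0.017, EIF4G1 at -0.17, -0.15 and -0.13, EIF4G2 at -0.14, -0.12 and -0.10, and EIF1AD at -0.065, -0.047 and -0.026. EIF4ENIF1 was at -0.014 under TMM. By TPM, EEF2 was at 0.088, EIF1AX at 0.14, EIF5B at 0.19, EIF2B2 at 0.087, EIF2S1 at 0.29, EIF3B at 0.14, EIF3D at 0.041 and EIF4E at 0.46. Relative to genes of like length, EIF1 was at 0.17, EIF1B at 0.10, EIF2S3 at -0.085, EIF3A at -0.023, EIF4E at 0.045, EIF4E2 at 0.10, EIF4G1 at -0.37 and EIF4G2 at -0.11. Relative to genes with like reads per TPM, an alternative chosen after seeing the data, EEF1D was at 0.093, EIF1 at 0.067, EIF1B at 0.072, EIF2B2 at 0.040, EIF2S1 at 0.015, EIF2S3 at -0.20, EIF3A at -0.085, EIF4G1 at -0.25 and EIF4G2 at -0.057. The scalings move all genes by the same amount by construction, and the cause of the other turns was not tested. Depth limits EIF4E3, EIF4EBP3 and EEF1E1-BLOC1S5, each under 100 reads over both libraries.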

Other observations

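SENP3-EIF4A1, which overlaps EIF4A1 on the same strand, had 318 reads in Huh7-NC against 303 in Huh7-si. ANKHD1-EIF4EBP3 had 888 and 1209 reads, far more than the 14.0 and 12.4 reads of EIF4EBP3 itself, with which it overlaps. An unnamed gene on the same strand at EIF4A1 (ENSG00000264772) had 209 and 460 reads.

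The 39 pseudogene rows of EEF1A1 held 230 and 209 reads in all, against 231310 and 169502 reads of EEF1A1, and EEF1A1 summed with them had a log2 fold change of -0.40. The 141 pseudogene rows named after members held 312 reads in Huh7-NC against 279 in Huh7-si together.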
